A study of Rattus norvegicus with 14 samples.

Results

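Rats kept at 34°C were sampled after 1 month (the label Acc, long heat acclimation) and after 2 days (the label 2dac, short heat acclimation), and left ventricle of the heart and soleus muscle were profiled on arrays of 1185 probes. The samples compared were chosen by their treatment labels: the 4 samples that had heat and no exercise, 1 per tissue and time, together with the 1 untreated control of each tissue, which makes 6 of the 14 samples of the series. The other 8 samples came from rats that were treadmill trained at 24°C for 1 month or 3 days, with or without 34°C heat for the same time, and are called the exercised samples. The labels mention no temperature for the untreated rats, and no transgene, allele or drug in any group. The extraction protocol describes 3 pools made from 6 animals for each group, but each sample has a single value for a probe, so the spread between pools was not analysed here. Nothing in the labels says that the heart and soleus samples of a group came from separate animals. The p-values rest on how far heart and soleus disagree across the treatments. That disagreement mixes tissue-specific responses with spread that may be technical, and it does not measure the spread between animals of a group.

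Heat acclimation is the set of adjustments that a mammal makes when it lives in a hot environment for days to weeks. In rats it is commonly described as having an early phase, with transient responses to strain, and a later phase in which the heart works more economically and cells hold larger reserves of protective proteins such as heat shock proteins. The left ventricle is the chamber that pumps blood to the body, and the soleus is a postural calf muscle rich in slow, oxidative fibres. Comparing the time points with the untreated baseline separates transient from lasting and late differences.

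The probes carry identifiers that begin with R (702 probes) or RG (483 probes), and 0 of 1185 were found in the RefSeq gene table of the rat. The files do not pair probes with genes, so results are given by probe, with up to 2 named for each direction of a comparison. For the same reason the tissue labels could not be checked against marker genes, and the RNA of several cell types is mixed in each sample. In such bulk tissue, fewer cells of a type and less RNA per cell cannot be told apart.

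The arrays differed in brightness before any probe was compared. A probe was taken as measured at an intensity of 1200 or more. In the heart the measured probes numbered 594 in the control, 612 at 2 days and 665 at 1 month, and in the soleus it was 728, 531 and 696. The 261 probes found at or above the limit on all 14 arrays had a median intensity of 5969, 5564 and 6153 in the heart and 7462, 3879 and 6224 in the soleus, in the same order. The 2-day soleus array was thus the dimmest and the shortest in measured probes, whereas the exercised samples had 692 to 752 measured probes in the heart and 623 to 945 in the soleus. The treated samples list no value under 1200 and leave those cells empty, while the controls list lower values, so an empty cell was treated as under the limit, although the labels and headers do not say what leaves a cell empty.

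**Figure D1:**
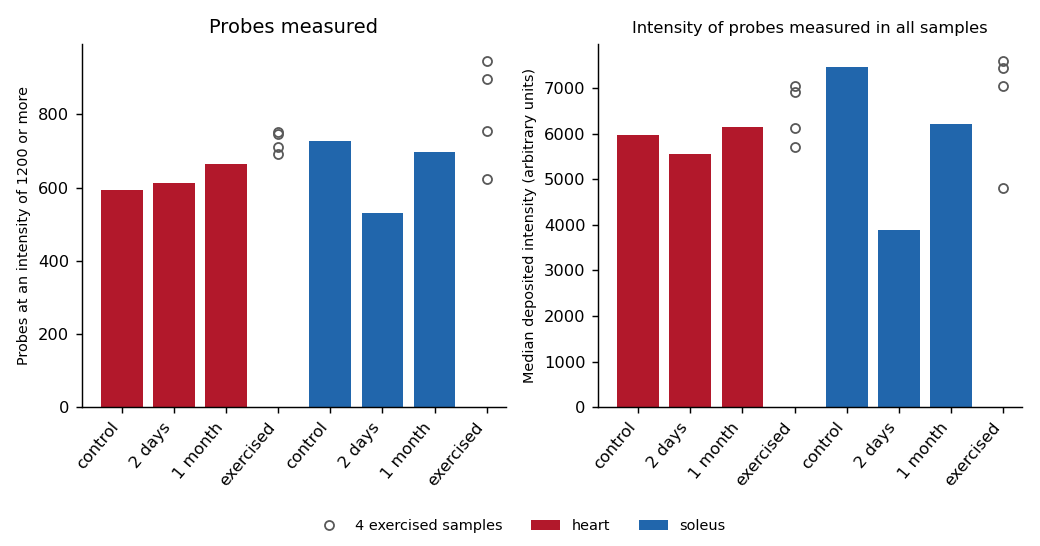
Left, number of probes at an intensity of 1200 or more; right, median deposited intensity in arbitrary units of the 261 probes measured in all samples. Bars show the control, 2-day and 1-month heat sample of each tissue and open circles the 4 exercised samples; the 2-day soleus array has 531 measured probes and a median of 3879, the lowest of the 6 samples in both panels.

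The 1-month samples ranked the probes much as the controls did, and the 2-day samples stood apart from both. Spearman's rho across the 222 probes above the dimmest array's limit in all samples was 0.776 between 1 month and 2 days, 0.811 between 2 days and control and 0.940 between 1 month and control in the heart. In the soleus the same values were 0.831, 0.810 and 0.939. These are correlations across probes, which share an array and are not independent replicates.

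The likeness also crossed the tissues. Among the control and 1-month heat samples of heart and soleus, the 6 pairwise rho values ran between 0.890 and 0.968. The heart members of that set had a rho of 0.882 to 0.923 with the 4 exercised heart samples, and the soleus members one of 0.832 to 0.885 with the 4 exercised soleus samples. The exercised samples of a tissue correlated with one another at 0.932 to 0.951 in the heart and at 0.892 to 0.940 in the soleus. The heart and soleus controls were the closest of the 6 pairs (0.968), closer than either was to the 1-month sample of its own tissue, and the 1-month heart and soleus samples had a rho of 0.897. The 2-day samples of the tissues were less alike, with a rho of 0.737. The 2-day heart had a rho of 0.818 to 0.885 with the 4 exercised heart samples. That was above its rho of 0.811 with the heart control and 0.776 with the 1-month heart. The 2-day soleus had a rho of 0.759 to 0.840 with the 4 exercised soleus samples, beside 0.810 with its control and 0.831 with 1 month. No label or header gives an array, scan or hybridisation batch, so the part of a batch in these likenesses was not tested.

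The probes that differed between 1 month and 2 days of heat were sought in both tissues together, because each tissue has 1 sample per time. A linear model (limma) with treatment and tissue as terms was fitted to log2 intensities of all 14 samples, after quantile normalization, for the 531 probes above the dimmest array's limit in at least 7 samples. Of these, 19 (3.58%) passed an adjusted p of 0.05 after Benjamini-Hochberg adjustment, 18 of them higher and 1 lower at 1 month. At an unadjusted p under 0.05 the counts were 64 higher and 30 lower. The filter bears on this split. A probe above the limit in the 2-day samples alone is not tested, while one under it in those alone is. With no filter 22 were higher and 9 lower, and with the filter set on the heat and control samples 23 and 0. The part of the filter was not tested. The 18 probes were higher at 1 month than at 2 days in both tissues. The test favours such probes, since the tissues serve as the 2 samples of a time. Their log2 differences lay between 0.74 and 1.69, beside a median standard error of 0.21 over all probes tested. The count depended on single samples. It was 2 without the 1-month heart, 9 without the 1-month soleus, 11 without either control, 11 without both controls and 50 without the 2-day soleus. The split of directions moved as well, to 33 higher and 17 lower without the 2-day soleus and to 16 higher and 10 lower without the 2-day heart. Fitted to the 6 heat and control samples alone, the test called 0 probes (lowest adjusted p 0.064 by limma, with 97 probes at an unadjusted p under 0.05).

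R377 had the lowest p. In the heart its deposited intensity was 9351 at 1 month and empty at 2 days, against 8784 in the control. In the soleus it was 8861 at 1 month and empty at 2 days, against 9166 in the control. The 1-month and control samples were alike in both tissues and the 2-day samples alone fell under the limit. R377 was at least 5.87-fold higher at 1 month than at 2 days in the heart on the normalized scale. In the soleus it was at least 4.34-fold higher. Here the 2-day value is bounded by the lowest measured value of its own array, and nothing is added to the intensities. The log2 values of the fit add 1219 to each intensity, which shrinks ratios, so these bounds and the limma difference are on unlike scales. The limma difference was 1.69 ± 0.17 (SE) on the log2 scale, adjusted p = 0.000333. Both 2-day values were empty and were raised to the same 2040, the lowest value that the fit allows. They are equal by construction, so the SE and p hold no measured spread between them, and the difference is bounded by that value. In the exercised samples R377 lay between 3515 and 4827 in the heart and between 3172 and 5168 in the soleus, below the 1-month and control values of both tissues.

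R568 had the same shape. Its heart intensity was 7966 at 1 month and 2944 at 2 days, against 7334 in the control. Its soleus intensity was 7490 at 1 month and empty at 2 days, against 7585 in the control. Both 2-day values were again the lowest of their tissue, and the exercised samples lay between them and the 1-month values, at 3818 to 4954 in the heart and 3498 to 5030 in the soleus. The log2 difference was 1.25 ± 0.16 (SE), with an adjusted p of 0.00207 in limma.

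RG358 was the single probe that was lower at 1 month. Its heart intensity was 2158 at 1 month and 3720 at 2 days, against 849 in the control, and its soleus intensity was 1802 at 1 month and 5309 at 2 days, against 1226 in the control. The 2-day value was the highest of the 3 heat-series samples in each tissue, and the 4 exercised samples ranged between 1939 and 3278 in the heart and between 2770 and 4441 in the soleus. Its log2 difference was -1.14 ± 0.21 (SE), adjusted p = 0.0126 by limma. R371, next in that direction, did not pass. It read 17534 at 1 month and 25724 at 2 days, against 14802 in the control, in the heart, and 14479 at 1 month and 23792 at 2 days, against 16931 in the control, in the soleus (log2 difference -0.70 ± 0.18 SE, adjusted p = 0.0617 by limma).

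**Figure D2:**
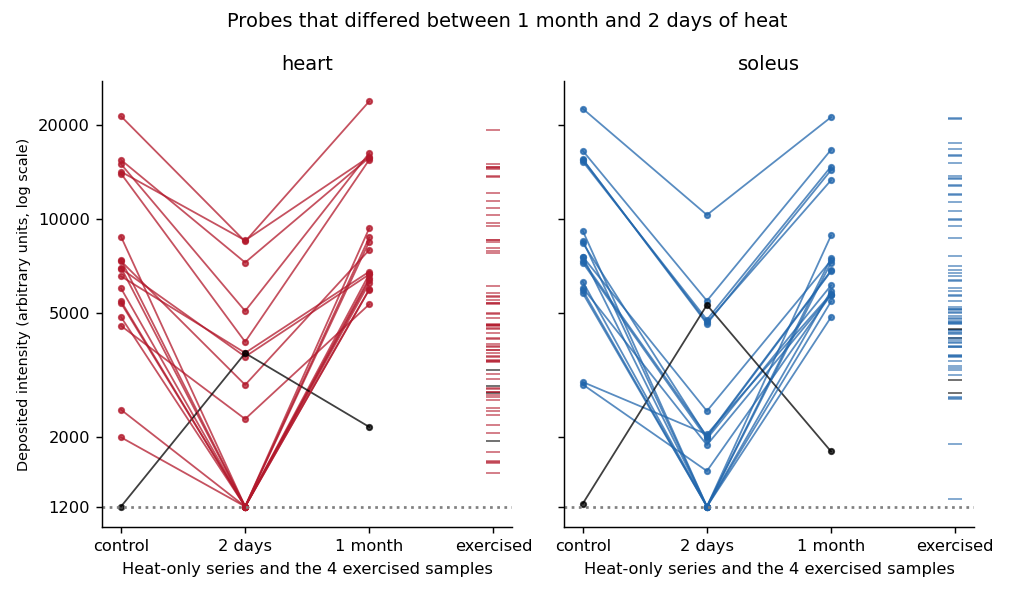
Deposited intensities (arbitrary units, log axis) of the 19 probes that passed limma's test between 1 month and 2 days of heat, in heart (left) and soleus (right). Lines join the control, 2-day and 1-month sample, short dashes are the 4 exercised samples, black marks the 1 probe lower at 1 month, and values that are empty or under 1200 are drawn at the dotted line; the 18 others are lowest at 2 days in both tissues, and 9 of them in the heart and 6 in the soleus are empty at 2 days.

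The exercised samples place these differences among the other arrays. Of the 18 probes higher at 1 month, all 18 in the heart and 16 in the soleus had a 2-day value below all 4 exercised samples, where 47.8% and 56.9% of all tested probes did so. All 18 in the heart and 11 in the soleus had a 1-month value above all 4 exercised samples, against 24.5% and 21.1% of all tested probes. For the controls the count was 13 in each tissue, beside 11.5% and 20.9% of all tested probes. These counts describe the called probes, whose selection used the same heat samples.

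The baseline comparisons set each heat time against the untreated control. In the same fit, 38 of 531 probes (7.16%) differed between 2 days of heat and the control, 8 higher and 30 lower, with 34 higher and 76 lower at an unadjusted p under 0.05. The filter leaves out probes above the limit at 2 days alone here too. With no filter 15 were higher and 25 lower, and with the filter set on the heat and control samples 9 and 33. The balance of directions moved with the setting, to 17 higher and 18 lower with median scaling and to 29 higher and 38 lower without the 2-day heart. Between 1 month of heat and the control, 0 probes (0.0%) passed. There limma's lowest adjusted p was 0.109, and 13 probes were higher and 18 lower at an unadjusted p under 0.05. Both comparisons use the same controls, and the 2-day samples are also those set against 1 month above. Of the 38 probes called at 2 days, 33 had a log2 difference at 1 month under 50% of its size at 2 days. They were 26 of the 30 lower and 7 of the 8 higher ones. The 38 probes were chosen by their 2-day values, and this choice favours a smaller difference at 1 month. The share over all tested probes is not given, so the count only describes the called probes. The 2-day count was 1 without either control, 18 without either 1-month heat sample, 23 without either 1-month training sample, 25 without either 3-day combined sample and 67 without the 2-day heart, and limma called 0 probes in the 6 heat and control samples alone (lowest adjusted p 0.0653, with 115 probes at an unadjusted p under 0.05).

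The lower calls at 2 days were led by the probes described above, R377 with a log2 difference of -1.59 ± 0.17 (SE, adjusted p = 0.000608 by limma) and R568 with -1.12 ± 0.16 (SE, adjusted p = 0.00452). The higher calls were led by RG043. Its intensity was 1325 in the control, 5004 at 2 days and 3852 at 1 month in the heart, and 1933, 3990 and 3706 in the soleus. Both heat samples were above the control in each tissue. The normalized log2 ratios to the control were 1.10 at 2 days and 0.63 at 1 month in the heart, and 1.27 and 0.59 in the soleus, so that RG043 was at least 2-fold from the control at 2 days and under 2-fold at 1 month in both. Its log2 difference between 2 days and control was 1.11 ± 0.18 (SE), with an adjusted p of 0.0078 in limma. R370 was at 9513 in the control, 15252 at 2 days and 14698 at 1 month in the heart, and at 10505, 15526 and 11249 in the soleus. Its 1-month value stayed close to the 2-day value in the heart and close to the control in the soleus (2 days minus control 0.96 ± 0.18 SE on the log2 scale, adjusted p = 0.0143 by limma).

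Nearest to a difference between 1 month and control were RG278 and R581 on the higher side, and neither passed. RG278 was at 1999 in the control, empty at 2 days and 6238 at 1 month in the heart, and at 3007, 2044 and 5758 in the soleus, a log2 difference of 0.87 ± 0.17 (SE) at 1 month (adjusted p = 0.109 by limma). R581 was at 1306, 3553 and 4804 in the heart and at 1927, 2040 and 4995 in the soleus (0.86 ± 0.17 SE, adjusted p = 0.109 by limma). The 1-month value was the highest of the 3 in both tissues for each of these probes. On the lower side, R465 had a log2 difference of -0.75 ± 0.17 (SE) with an adjusted p of 0.168 and R466 one of -0.70 ± 0.20 (SE) with an adjusted p of 0.350 by limma.

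Within a tissue there is 1 sample per time, so the size of a difference is given with no test. A probe was compared where it was measured in each sample and at or above the array's median in at least 1, on the scale of log2(normalized intensity + 1219), which understates differences of dim probes. In the heart, 30 of 342 probes (8.77%) were at least 2-fold apart between 1 month and 2 days, 9 higher and 21 lower at 1 month. In the soleus 29 of 366 (7.92%) were, 7 higher and 22 lower. The log2 ratios had a standard deviation of 0.602 in the heart and 0.576 in the soleus across probes. The direction of the soleus count depended on the scaling: with no scaling 60 probes were higher and 3 lower at 1 month, as the median log2 ratio of all compared probes was then 0.51 in place of 0.03. In the heart the unscaled counts were 15 higher and 14 lower.

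RG159 and RG357 had the largest ratios on the lower side in the heart. RG159 had 3241 at 1 month and 14903 at 2 days, against 2152 in the control, and the 4 exercised heart samples lay between 2445 and 5789. RG357 had 2195 at 1 month and 11748 at 2 days, against 1422 in the control. Their log2 ratios of 1 month over 2 days were -2.28 and -2.25, those of 2 days over control 2.32 and 2.26, and those of 1 month over control 0.04 and 0.01. Neither showed this in the soleus, where RG159 was at 3730, 3860 and 3818 in the control, 2-day and 1-month sample and RG357 was empty at 2 days.

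R181 and R514 had the largest ratios on the higher side in the heart. R181 was at 15493 at 1 month and 4045 at 2 days, against 13985 in the control, a log2 ratio of 1.57 for 1 month over 2 days. R514 was at 16273 at 1 month and 5076 at 2 days, against 15003 in the control, a log2 ratio of 1.45. Both were also lowest at 2 days in the soleus, where R181 read 13318 at 1 month and 4671 at 2 days (log2 ratio 0.73) and R514 read 14738 and 4761 (log2 ratio 0.85).

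In the soleus RG042 and RG447 had the largest ratios on the lower side. RG042 was at 730 in the control, 8834 at 2 days and 1660 at 1 month, and RG447 at 1000, 6386 and 2408. These are log2 ratios of -2.42 and -1.81 for 1 month over 2 days, which became -1.80 and -1.07 with no scaling. The control values of both probes lay under the measuring limit, so the baseline is not part of their comparison. On the higher side, RG110 was at 4644, 1400 and 7500 and R469 at 4398, 1977 and 8115 in the control, 2-day and 1-month sample, with log2 ratios of 1.34 and 1.22. In both of these the 1-month value exceeded the control as well.

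Each probe that was measured in all 3 samples of a tissue and at or above the array's median in at least 1 of them was placed in 1 of 4 kinds, which left 336 of 434 measured probes in the heart and 382 of 470 in the soleus. It was transient when it was at least 2-fold from the control at 2 days and under 2-fold at 1 month, lasting when at least 2-fold the same way at both, and late when at least 2-fold at 1 month only, and the rest were under 2-fold at both. In the heart 22 of 336 probes (6.55%) were transient, 16 of them higher and 6 lower at 2 days, 0 were lasting and 2 were late. In the soleus 44 of 382 (11.5%) were transient, 35 higher and 9 lower, 0 were lasting and 2 were late. The counts of 0 lasting probes rest on the threshold and the scaling: with median scaling 1 heart probe and 6 soleus probes were lasting. For comparison, 22 of 307 heart probes (7.17%) and 44 of 367 soleus probes (12%) were at least 2-fold apart between 2 days and control. Between 1 month and control they were 3 of 355 (0.845%) and 4 of 410 (0.976%), all higher at 1 month at this setting. With the authors' relative intensities they were 7 higher and 2 lower in the heart, and with a pseudocount of 305 they were 9 higher and 1 lower in the heart and 12 higher and 2 lower in the soleus.

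The transient probes were closer to the control at 1 month than at 2 days, as the definition asks, by amounts that differed between the tissues. Their median size from the control was 1.18 at 2 days and 0.13 at 1 month on the log2 scale in the heart, and 1.28 and 0.39 in the soleus. At 1 month 18 of 22 in the heart and 18 of 44 in the soleus were within 1.25-fold of the control. In the heart 12 of 22 lay on the other side of the control at 1 month, and in the soleus 2 of 44. Those that kept at least 50% of their 2-day log2 ratio were 2 in the heart and 5 in the soleus. The difference between the tissues was not tested, since each rests on 1 sample per time. Just inside the threshold lay RG204 in the heart (log2 size 1.01 at 2 days) and RG007 in the soleus (1.02), and just outside it RG026 (0.998) and RG432 (0.994).

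**Figure D3:**
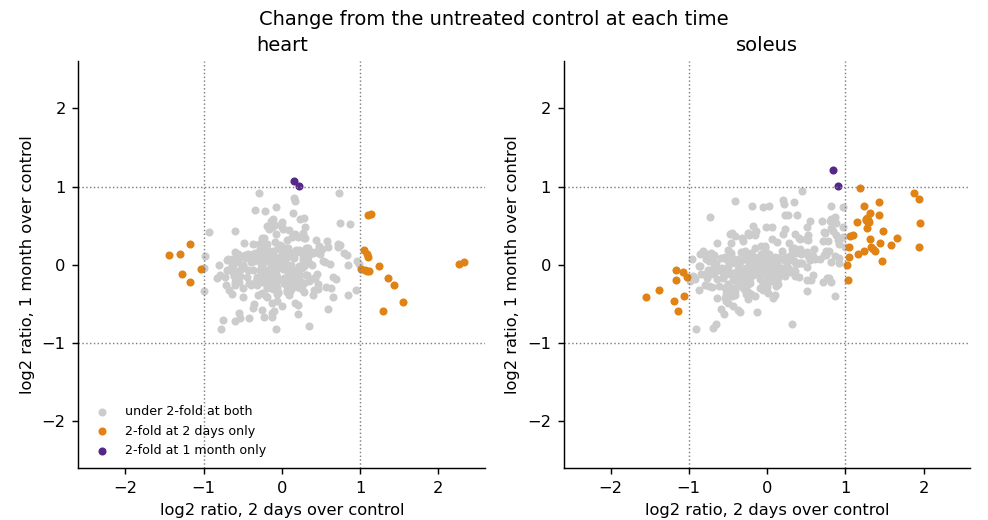
Log2 ratio of 2 days over control (horizontal) against log2 ratio of 1 month over control (vertical) for each probe measured in all 3 samples and at or above the array median in at least 1, in heart (left, 336 probes) and soleus (right, 382 probes). Dotted lines mark 2-fold, orange points are the 22 and 44 transient probes and purple the 2 late ones in each tissue; the orange points lie near a vertical ratio of 0 in the heart and spread further along the diagonal in the soleus.

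The soleus transient probes included RG147, at 2013 in the control, 6500 at 2 days and 3643 at 1 month, and RG152, at 1803, 6088 and 4355. Both had come part of the way back at 1 month, with log2 ratios to the control of 1.96 and 1.94 at 2 days and 0.54 and 0.84 at 1 month. With no scaling the 2-day ratios were 1.26 and 1.27. Among the lower ones, R109 was at 10962, 1697 and 6906 and RG050 at 11157, 2093 and 7806, with ratios of -1.55 and -1.38 at 2 days and -0.41 and -0.32 at 1 month. In the heart, R109 had a milder dip, at 11937, 6866 and 10935. The direction of the transient soleus probes followed the scaling, since with no scaling 83 probes were transient, 7 higher and 76 lower at 2 days.

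The late probes of the heart were R376 and R118. R376 was at 1441 in the control, 2053 at 2 days and 5726 at 1 month, with log2 ratios to the control of 0.15 and 1.08. R118 was at 1380, 2122 and 5177, with ratios of 0.22 and 1.01. In the soleus, however, both were highest at 2 days, R376 at 1803, 5917 and 4759 and R118 at 1714, 3907 and 3310. The late probes of the soleus were R609, at 3171, 4218 and 8625, and R354, at 1665, 2848 and 4775. Their 2-day ratios of 0.85 and 0.91 were close to the threshold already, beside 1.22 and 1.01 at 1 month. In the heart R609 was highest at 2 days, at 1376, 5867 and 2032.

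Brightness moved with these counts. Split into 3 parts by mean intensity, the soleus probes at least 2-fold apart between 2 days and control were 23 higher and 2 lower of 123 in the dimmest part, 8 and 7 of 122 in the middle and 4 and 0 of 122 in the brightest. In the heart the same counts were 8 and 1 of 103, 5 and 1 of 102, and 3 and 4 of 102. The probe series differed too: of the heart probes at least 2-fold apart between 1 month and 2 days, 7 higher and 7 lower were among 200 R probes and 2 higher and 14 lower among 142 RG probes. The part of brightness or probe series in the results was not tested.

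Many probes were not compared because they were empty at 2 days. In the heart 107 probes were measured at 1 month and in the control but not at 2 days, and in the soleus 170. Most were dim, with a median control intensity of 2246 in the heart and 2490 in the soleus. On the scale used for the 2-fold counts, 17 of the 541 heart probes measured in both the 1-month and control samples (3.14%) were at least 2-fold above the 2-day array's lowest measured value in both, and 4 of 640 in the soleus (0.625%). They had intensities of 4831 to 15537 at 1 month and 4558 to 18566 in the control in the heart, and 5891 to 8861 at 1 month and 5910 to 9166 in the control in the soleus. All 17 and all 4 were measured in each of the 4 exercised samples of their tissue, with median intensities of 4278 and 4648. These probes were chosen as bright in the 1-month and control samples, and the share over all probes is not given. Their detection elsewhere is therefore only a description. The tissues shared 3 of them, which is 17.6% of the heart's and 75% of the soleus's.

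R689 was the brightest of the empty heart probes, at 15537 at 1 month and empty at 2 days, against 18566 in the control and 11769 to 19698 in the exercised heart samples. On the normalized scale, with nothing added to the intensities, it was at least 9.34-fold higher at 1 month than at 2 days. It was also empty at 2 days in the soleus, where it read 5590 at 1 month and 4585 in the control.

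The opposite pattern was a probe measured at 2 days alone, which held for 95 of the 1185 probes in the heart and 23 in the soleus. Of these 14 and 3 were at least 2-fold above the limit of both other arrays. R406 was at 418 in the heart control, 12713 at 2 days and empty at 1 month, and in the soleus it was at 434, 2984 and empty. RG434 was at 262, 8294 and empty in the heart. In the soleus the leading probes were R646, at 1017, 3663 and empty, and RG526, at 507, 3341 and empty. R646 did not do this in the heart, where it was measured at both times, at 3575 at 1 month and 2429 at 2 days.

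Other probes were first measured at 1 month. Of the 1185 probes, 65 in the heart and 31 in the soleus were measured at 1 month but neither at 2 days nor in the control. Their median intensities were 1990 and 1486. Those measured at both heat times and not in the control were 59 and 25. Those measured in the control alone were 29 and 75. The arrays also differed in measured probes, for example 728 in the soleus control and 531 in the 2-day soleus. The part of brightness in these counts was not tested.

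The ratios of heart and soleus were also set side by side, probe by probe. Over the 276 probes compared in both tissues, the ratio of 1 month over 2 days had a Pearson r of 0.138 and a Spearman rho of 0.159, 55.8% had the same sign, and 0 of the 15 heart and 11 soleus probes at least 2-fold apart were so in both. As 5.43% of all 276 probes were at least 2-fold apart in the heart and 3.99% in the soleus, an overlap of 0 among so few probes is not a result about sharing. For 2 days over control, r was 0.370 and rho 0.329 over 260 probes, and 1 probe (RG043) was at least 2-fold higher at 2 days in both, which is 6.25% of 16 in the heart and 8.33% of 12 in the soleus. These shares lie near those of all 260 probes, 4.62% at least 2-fold apart in the soleus and 6.15% in the heart. For 1 month over control, r was 0.681 and rho 0.647 over 332 probes, although 1 probe in the heart and 0 in the soleus reached 2-fold. The points of each correlation share their arrays. All 19 probes called by the linear model differed in the same direction in both tissues. As the model takes the tissues as the 2 samples of a time, it favours such probes, and their direction is not a result about sharing.

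**Figure D4:**
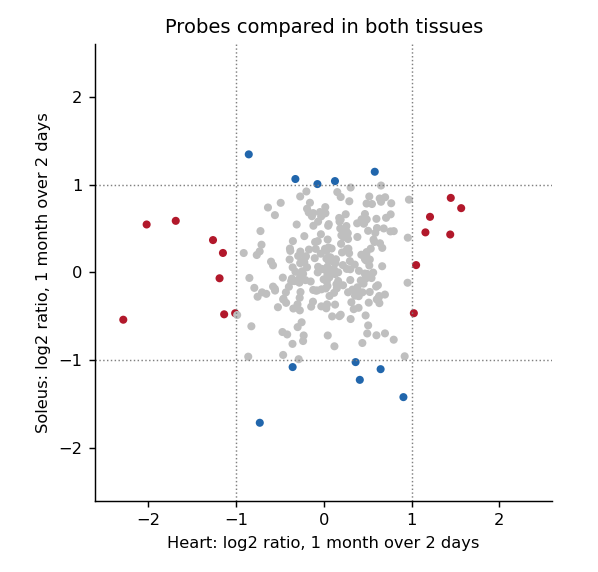
Log2 ratio of 1 month over 2 days of heat in the heart (horizontal) against the same ratio in the soleus (vertical) for the 276 probes compared in both tissues. Dotted lines mark 2-fold; the 15 red points are at least 2-fold apart in the heart, the 11 blue points in the soleus, and 0 points are so in both.

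The time difference under heat was larger than that under exercise by the count of 2-fold probes. Between 1 month and 3 days of training, 8 of 423 heart probes (1.89%) and 10 of 482 soleus probes (2.07%) were at least 2-fold apart. Under training combined with heat they were 8 of 412 (1.94%) and 12 of 424 (2.83%). Under heat alone they were the 8.77% and 7.92% given above. The short times differ, 2 days for heat and 3 days for the exercised groups, and the 2-day soleus array was also the dimmest.

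**Figure D5:**
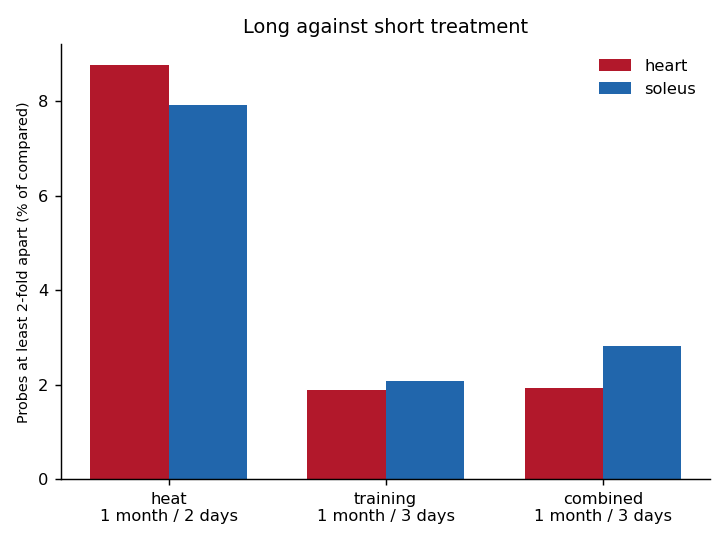
Share of compared probes at least 2-fold apart between the long and the short time, in percent, for heat alone (1 month over 2 days), training (1 month over 3 days) and combined heat and training (1 month over 3 days). Red bars are heart and blue bars soleus, each from 1 sample per time; heat alone stands at 8.77% and 7.92%, the exercised groups between 1.89% and 2.83%.

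The difference in the time effect was tested in the linear model. It exceeded that of training in 2 probes (0.377%, both higher under heat), with 43 higher and 13 lower at an unadjusted p under 0.05. They were R377, with a difference of log2 differences of 1.66 ± 0.23 (SE, adjusted p = 0.0111 by limma), and R568, with 1.40 ± 0.22 (SE, adjusted p = 0.0177). Against combined heat and training it exceeded in 7 probes (1.32%), led by R377 with 1.79 ± 0.23 (SE, adjusted p = 0.00553 by limma) and R568 with 1.34 ± 0.22 (SE, adjusted p = 0.0231). On the lower side 0 of the 531 probes passed in either comparison. With no filter on low values 2 passed against training and 1 against combined treatment. Among the 531, RG358 came nearest for training (-1.29 ± 0.30 SE, adjusted p = 0.0878 by limma) and RG043 for the combined treatment (-0.97 ± 0.25 SE, adjusted p = 0.12). Leaving out 1 sample moved the count against training to 0 without either 1-month heat sample, the 1-month training heart or the 3-day training soleus, to 1 without either control or the 1-month training soleus, to 5 without the 3-day training heart, to 8 without the 2-day heart and to 15 without the 2-day soleus. The count against combined treatment was 0 without the 1-month heat heart, 2 without the 1-month heat soleus, 1 without either control, either 1-month training sample or either combined soleus sample, and 21 without the 2-day soleus.

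The direction of the probes that were at least 2-fold apart under heat was looked up in the exercised groups. Of the 9 heart probes higher at 1 month of heat, 6 were also higher at 1 month of training and 4 of combined treatment, where 50.2% and 39.9% of all compared probes were. Of the 21 lower heart probes, 13 were also lower under training and 15 of 20 under combined treatment, beside 46.8% and 58.3%. In the soleus, 1 of 7 higher probes was higher under training and 0 of the 5 measured under combined treatment, beside 50.6% and 57.9%. Of the 22 lower soleus probes only 11 were measured under training and 9 under combined treatment. Among these, 4 and 5 were lower there, beside 47.2% and 41.1%.

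Each heat time was also set against the 8 exercised samples, a comparison added after seeing that the 1-month heat and control samples resembled one another. At 1 month 10 of 531 probes (1.88%) passed in limma, 7 higher and 3 lower, and at 2 days 36 (6.78%), 10 higher and 26 lower. With no filter the split at 2 days was 16 higher and 20 lower. R377 and RG278 led the higher side at 1 month, with log2 differences of 1.02 ± 0.13 and 0.99 ± 0.13 (SE, adjusted p = 0.00313 each by limma), and R712 and R370 the lower, with -0.64 ± 0.12 and -0.72 ± 0.14 (SE, adjusted p = 0.022 each). At 2 days RG159 and R346 led the higher side with 1.49 ± 0.29 and 0.72 ± 0.15 (SE, adjusted p = 0.0266 and 0.0267 by limma), and R438 and R712 the lower with -0.87 ± 0.15 and -0.71 ± 0.12 (SE, adjusted p = 0.0266 each). R712 was thus lower at both heat times than in the exercised samples. It was empty at 2 days in both tissues, so its 2-day values entered the fit as equal by construction. The R712 heart control, at 3373, also lay below the 4 exercised heart samples, at 3932 to 5273. Its soleus control, at 3489, lay near the low end of the 4 exercised soleus samples, at 3198 to 6015. R370 read 9513 and 10505 in the heart and soleus controls, also below the exercised samples, at 18390 to 20642 and 18656 to 37112. Leaving out 1 sample at a time moved these counts. At 1 month the count was 0 without the 1-month heart, 2 without the 1-month soleus, 5 without either control, 17 without the 1-month combined heart and 54 without either 2-day sample. At 2 days it was 0 without the 1-month or the 3-day training soleus, 10 without the 1-month training heart, 12 without either control, 16 without either 1-month heat sample or the 3-day combined soleus, and 92 without the 2-day heart.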

How the data were processed

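The deposited files of the authors hold array intensities, 1 linear value per probe and sample. In 4 samples (another layout of the same quantity) lines without a value lack the second cell. Scaling, background correction, scanner software and the averaging of pools are stated in none of the labels or headers. A series table deposited by the authors gives relative intensities and was used as an alternative. In the controls these were close to the intensity divided by a constant, and less so in the treated samples. Empty cells and intensities under 1200 were set to 1200, quantile normalization was run over the 14 samples (limma 3.58.1 in R 4.3.3), and log2 was taken after adding a pseudocount of 1219, the 10th percentile of the deposited intensities.

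For the test, values under 2040, the highest of the arrays' lowest measured normalized values, were raised to it, and 531 probes above it in at least 7 of 14 samples were fitted with lmFit and eBayes on treatment (7 levels) plus tissue, with 6 residual degrees of freedom. Heart and soleus serve as the 2 samples of a treatment. A probe that is empty in both of them, as R377 and R712 were at 2 days, has equal values there by construction. No spread between such values is measured. The fit was tested on simulated data for 1 month minus 2 days. The share of false calls was 4.48% at 1.5-fold, 8.83% at 2-fold and 19.4% at 3-fold, against a nominal 5%. The changes recovered were 14.6%, 72.2% and 75.8%. The simulation gave all probes and arrays the same noise, unlike arrays that differ in brightness. The number of arrays limits the precision. The named probes are the 2 with the lowest p, or the largest log2 ratio, in each direction of a comparison. The members and lists were chosen with earlier results of these data known. Alternatives changed the scaling, the pseudocount, the filters, the samples fitted and the source table.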

Additional observations from a re-analysis of the deposited data

Results flagged for a closer look

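The difference between 1 month and the short time was set under heat against the same difference under exercise, and it differed by a test of the difference itself (limma, adjusted p under 0.05). Against training, 2 of 531 probes passed: R377 with a difference of 1.66 and R568 with 1.40 on the log2 scale, both positive under heat. Against combined heat and training 7 probes passed, among them R377 with 1.79 and R568 with 1.34. For R377 against training, the adjusted p was 0.124 without the 1-month heat heart, 0.0549 without the 1-month heat soleus, 0.117 without the 1-month training heart and 0.102 without the 3-day training soleus. R568 lost its call in 9 alternatives and kept it in 11 in each of the 2 comparisons. With no scaling its adjusted p was 0.0623 against training and 0.153 against combined treatment. No group held 4 or more samples of 1 kind, so single samples were not screened for standing apart.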

How the results depend on the processing

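No paired analysis was possible because the labels carry no replicate numbers and each tissue has 1 sample per group. No named probe was found to reverse under any alternative run, though within a tissue this was checked only for ratios of at least 2-fold. Of the values for named probes, 546 counted as the same, 67 lost the call, 5 gained it and 4 moved. In limma, the same meant an unchanged direction and side of the threshold, also for probes that had not passed. Within a tissue, it meant that the log2 ratio moved by less than the standard deviation across probes. Of the recomputed counts, 120 stayed within 1.5 times and 104 did not. For the changed counts below the cause was not tested.

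The 19 probes called between 1 month and 2 days became 36 (36 higher, 0 lower) with no scaling, 32 (27 higher, 5 lower) with the relative intensities, 31 (22 higher, 9 lower) with no filter, 11 without both controls and 0 in the 6 heat and control samples alone. They shared 16, 15 and 14 probes with the 19 under the first 3. Leaving out 1 sample gave 2 to 50: 2 without the 1-month heart, 9 without the 1-month soleus, 11 without either control and 50 without the 2-day soleus. The 38 between 2 days and control became 66 (26 higher, 40 lower) with relative intensities and 0 in the 6 samples alone, with median scaling 17 were higher and 18 lower, and leaving out 1 sample gave 1 to 67: 1 without either control, 18 without either 1-month heat sample, 23 without either 1-month training sample, 25 without either 3-day combined sample and 67 without the 2-day heart. Between 1 month and control all settings gave 0 (0 to 0), with a lowest adjusted p of 0.0508 under median scaling. The 2 against training became 5 with no filter, and 0 to 15 without 1 sample. The 7 against combined treatment became 3 with median scaling, no scaling, the smaller pseudocount (305), no filter or the heat-sample filter and 4 with relative intensities, and 0 to 21 without 1 sample. Against the exercised samples, the 10 at 1 month became 30 with relative intensities and 22 with no filter (0 to 54 without 1 sample), and the 36 at 2 days became 122 with no scaling and 100 with relative intensities (0 to 92).

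For the heart, the 30 probes between 1 month and 2 days became 46 with the smaller pseudocount and 10 where both samples had to reach the array median. With median scaling 11 were higher and 19 lower. Under that median rule the 22 between 2 days and control and the 22 transient probes became 9 and 9, and the 3 between 1 month and control and the 2 late ones 0. Those 3 became 9, 11, 9 and 10 with median scaling, no scaling, relative intensities and the smaller pseudocount, the 2 late ones 5, 8, 7 and 8, and the 0 lasting ones 1 with median scaling. The 17 empty at 2 days became 35 with relative intensities and 26 with the smaller pseudocount. For the soleus, the 29 between 1 month and 2 days became 63 with no scaling, 49 with the smaller pseudocount and 5 under the median rule, and 4 higher and 26 lower with median scaling. The 44 between 2 days and control became 83, 74 and 4, and the 44 transient ones 83, 68 and 4. The 4 between 1 month and control became 11 with median scaling, 7 with relative intensities, 14 with the smaller pseudocount and 1 under the median rule, which also left 1 late probe. The 0 lasting ones became 6, 4 and 6 under the first 3 of these. The 4 empty at 2 days became 17 with no scaling, 19 with relative intensities and 9 with the smaller pseudocount; this count and the one against exercised samples were chosen after seeing the data. At 2 days 573 heart and 654 soleus probes were empty, beside 520 and 489 at 1 month. What left them empty was not tested.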

Other observations

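The series table of relative intensities was close to the per-sample intensities divided by a constant in the controls, where the 90th percentile of the ratio across probes was 1.01 times the 10th in the heart and 1.00 times in the soleus. In the treated samples that quotient ran between 1.07 and 1.66, and it was highest in the 2-day heat heart.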
